A study of Mus musculus with 82 samples.

Results

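The myelin-rich hexagons were 10 of 82 laser-captured pieces of the mouse suprachiasmatic nucleus (SCN), the hypothalamic clock above the optic chiasm. They were chosen by their Mbp level: they had 100000 or more total counts and 2000 or more CPM (a gene's count divided by its library total, times 1000000) of Mbp, which encodes myelin basic protein. They were set against 29 myelin-poor hexagons, with the same depth and less than 500 CPM of Mbp. A further 42 hexagons lay between the thresholds and 1 was under the depth minimum. All came from C57BL/6 mice of 8 weeks, and the labels name no experimental treatment. Sections stained with cresyl violet were cut along a grid of hexagons of at most 40 µm radius, and each hexagon gave 1 Smart-seq2 library. The labels give each hexagon 3 coordinates (medial-lateral, ML; dorsal-ventral, DV; anterior-posterior), but no unit, no direction of the axes, no animal and no time of day. Sections were numbered 1 to 9 by the anterior-posterior coordinate, and hexagons by accession within a section. Since hexagons may share an animal and neighbours share tissue, every p-value given here over hexagons is too small.

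Myelin is the lipid-rich sheath that oligodendrocytes wrap around axons. Mature oligodendrocytes make it from a small set of very abundant proteins, among them Mbp and Mobp, and from cholesterol and galactolipids. Mbp and Mobp transcripts are known to be carried out into the processes of the cell. The optic chiasm below the SCN is a myelinated tract, while the SCN itself is a dense group of small GABA neurons with little myelin.

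Promoters of 3 myelin genes from the oligodendrocyte lists are shown because oligodendrocyte genes are known targets of SOX-family factors, chiefly Sox10 in these cells. The windows run 250 bases before to 50 bases after the start of transcription in RefSeq annotation of GRCm38.p6. The 6 letters ACAAAG or their reverse complement CTTTGT, a SOX-type motif, stand in capitals where they occur. Mobp (chr9:120149492-120149791, plus strand) held 6 copies, all in reverse orientation, Cnp (chr11:100574689-100574988, plus strand) held 1, in forward orientation, and Mog (chr17:37023349-37023648, minus strand) held 0.
Mobp: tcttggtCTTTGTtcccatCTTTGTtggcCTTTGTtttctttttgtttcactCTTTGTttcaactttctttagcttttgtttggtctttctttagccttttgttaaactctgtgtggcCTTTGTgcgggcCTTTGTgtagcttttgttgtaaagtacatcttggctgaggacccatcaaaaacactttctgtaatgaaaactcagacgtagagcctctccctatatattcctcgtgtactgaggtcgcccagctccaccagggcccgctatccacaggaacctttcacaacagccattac
Cnp: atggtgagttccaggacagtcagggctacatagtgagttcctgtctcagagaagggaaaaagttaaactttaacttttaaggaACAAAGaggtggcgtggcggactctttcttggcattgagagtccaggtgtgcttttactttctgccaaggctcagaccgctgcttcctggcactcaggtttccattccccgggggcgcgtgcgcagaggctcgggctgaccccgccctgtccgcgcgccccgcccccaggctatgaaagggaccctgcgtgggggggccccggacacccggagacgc
Mog: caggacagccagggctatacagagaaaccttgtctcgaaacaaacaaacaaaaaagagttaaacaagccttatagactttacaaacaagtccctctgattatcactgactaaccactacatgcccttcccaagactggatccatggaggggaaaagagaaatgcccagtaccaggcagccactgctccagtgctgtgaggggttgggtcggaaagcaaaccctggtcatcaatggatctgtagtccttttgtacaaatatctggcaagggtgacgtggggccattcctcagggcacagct
Of the 19 genes on a list of myelin proteins, 15 had a promoter in the table, and 7 of these (46.7%) held the letters, against 21% of all 27025 genes with one. A match describes the letters only.

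The rule used Mbp alone, so Mbp levels are a description. The myelin-rich hexagons had 2072, 2974 and 9462 CPM of Mbp (lowest, median, highest), and the myelin-poor hexagons 94.7, 345 and 498 CPM. Just inside the upper threshold were replicate 13 of section 7 (2072 CPM) and replicate 5 of section 3 (2081 CPM), and just outside it replicates 8 and 10 of section 7 (1957 and 1772 CPM). Just inside the lower threshold were replicate 3 of section 7 (498 CPM) and replicate 4 of section 3 (487 CPM), and just outside it replicate 8 of section 3 (522 CPM) and replicate 11 of section 4 (536 CPM). The myelin-rich libraries held 347868, 792752 and 2506639 total counts (lowest, median, highest), against 120175, 558058 and 1655926 in myelin-poor libraries. They detected 10159 to 12656 genes (median 11095), against 9848 to 12673 (median 11768), and 1.38% to 2.29% of their counts were mitochondrial (median 1.49%), against 1.10% to 1.85% (median 1.37%). The part that the mitochondrial share has in the results was not tested.

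Myelin-rich hexagons sat toward high DV coordinates, a measure that the rule did not use. Their mean DV coordinate was 761.2 ± 127 (SD, n = 10), against 629.4 ± 137.7 in myelin-poor hexagons (n = 29), and it was higher in 5 of the 5 sections that hold both classes. The difference was 131.8, of which 102.6 remained within sections (two-sided permutation test within sections, p = 0.0245, adjusted over the 2 coordinates p = 0.0491). Without section 4 the permutation p was 0.102. Mean ML coordinates were 1362 ± 129 in myelin-rich and 1273 ± 89.8 in myelin-poor hexagons, and this difference of 88.5 did not pass the test (62.2 within sections, permutation p = 0.0763). The permutation p for ML was 0.0120 without section 6 (91.9 within sections) and 0.463 without section 4 (27.8 within sections). Of the 10 myelin-rich hexagons, 4 had the highest DV coordinate of their section and 2 the highest ML coordinate, so 6 lay at one of these edges. At the opposite edge, replicate 5 of section 3 and replicate 1 of section 6 had the lowest ML coordinate of their section. Edges were not counted for myelin-poor hexagons. Only 2 of the 10 had another myelin-rich hexagon as nearest neighbour. For 5 the nearest hexagon was between the thresholds, and for 3 it was myelin-poor, as for replicate 10 of section 3 with 9462 CPM of Mbp beside a neighbour with 299.6 CPM.

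**Figure D1:**
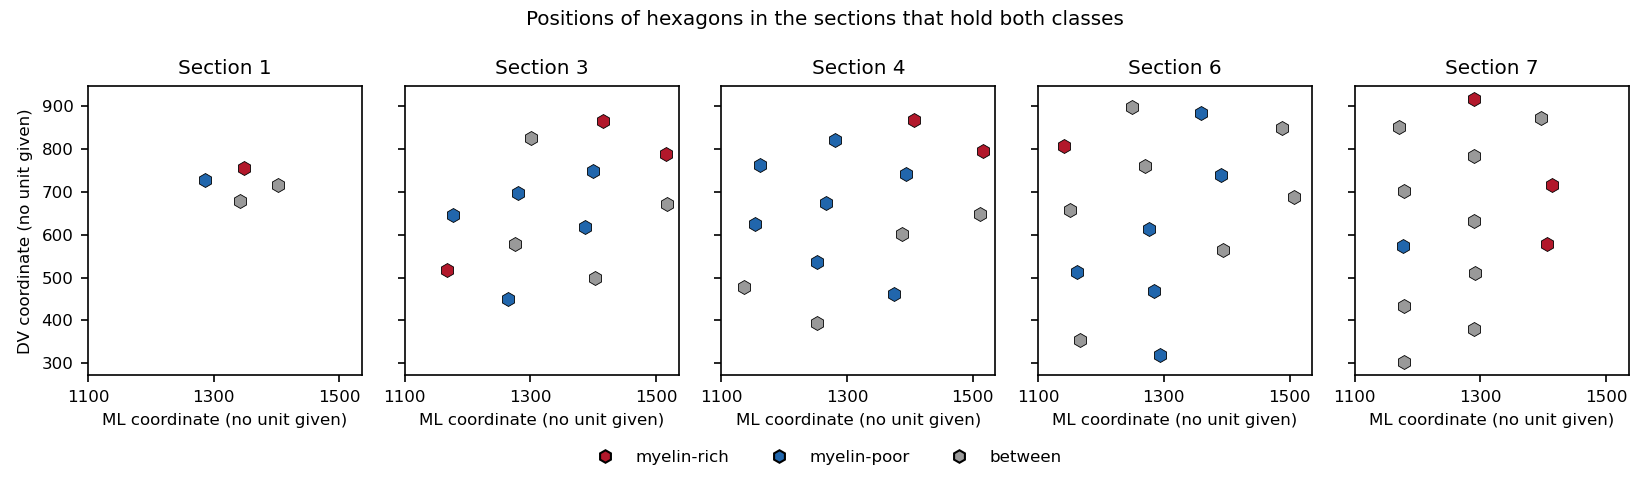
ML (x) and DV (y) coordinates of hexagons in the 5 sections that hold both classes; red, myelin-rich; blue, myelin-poor; grey, between the thresholds. The red hexagons of sections 3, 4 and 7 lie mostly at the upper or right edge, with 1 at the lower left of section 3 (DV coordinate 518) and 1 at the left of section 6 (ML coordinate 1141).

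The classes were spread unevenly along the anterior-posterior axis. Sections 3 and 7 had 3 myelin-rich hexagons each, section 4 had 2, and sections 1 and 6 had 1 each. Sections 2, 5, 8 and 9 had 0. Myelin-poor hexagons numbered 5, 7 and 6 in sections 3, 4 and 6, and 1 each in sections 1 and 7, so the myelin-rich hexagons of section 7 had a single myelin-poor partner.

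The other oligodendrocyte genes are known to be made by the same cell type as Mbp, so their values are given without a test. Mobp had 257 to 2689 CPM in myelin-rich hexagons (median 967), against 0 to 158 CPM in myelin-poor ones (median 81.8), with no overlap. Per length the median level of Mbp was 354 RPKM, that of Cnp 189 RPKM and that of Mobp 141 RPKM in myelin-rich hexagons, against 41.1 RPKM of Mbp, 24.2 RPKM of Cnp and 11.95 RPKM of Mobp in myelin-poor ones. The 3 genes kept this order in both groups.

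Of 67 genes on 3 oligodendrocyte lists, 40 passed the filter of 10 or more counts in 10 or more libraries, and 35 of the 40 had a higher fitted level in myelin-rich hexagons. The model fold changes (log2, myelin-rich over myelin-poor) were 6.52 for Mog, on the outer surface of myelin, 6.40 for the tight-junction claudin Cldn11, 3.94 for Mobp and 3.77 for the axon-facing adhesion protein Mag. Mog was at 0 in 20 of 29 myelin-poor hexagons, and Cldn11 also in 20, so these folds depend on low counts. Cnp, an enzyme of the cytoplasmic channels of myelin, differed by 2.65 (52.8 to 1152 CPM against 8.75 to 317 CPM). The other members with the highest mean levels in myelin-rich hexagons ranged widely: Enpp2 (autotaxin) differed by 5.24, the prostaglandin D synthase Ptgds by 4.51, the lipid carrier Apod by 3.44, Plekhb1 by 1.25, the microtubule regulator Tppp by 1.03 and Ndrg1 by 0.15.

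Transcription factors of the lineage were scarce in both classes. Olig1 had 32.8 to 120 CPM in myelin-rich hexagons, against 0.945 to 72.7 CPM in myelin-poor ones. Myrf, the regulator of the myelin programme, averaged 16.2 ± 13.6 CPM in myelin-rich and 1.70 ± 3.48 CPM in myelin-poor hexagons (SD, n = 10 and 29). Sox10 averaged 7.41 ± 7.93 and 2.73 ± 5.01 CPM, and Olig2 averaged 4.95 ± 6.82 and 7.86 ± 11.5 CPM in the same 2 groups. Myrf, Sox10 and Olig2 did not pass the filter.

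The myelin-rich hexagons were not alike. Replicate 13 of section 7 stood apart in which of these genes it held. That library had 2072 CPM of Mbp, 530 CPM of Mobp, 683 CPM of Plekhb1 and 146 CPM of Bcas1, all above the medians of the myelin-poor hexagons. Other listed genes lay below those medians, among them Cnp (52.8 against 87.9 CPM), Tppp (186 against 217 CPM) and Ndrg1 (127 against 413 CPM). Its summed level of the listed genes without Mbp and Mobp was 2467 CPM, inside the myelin-poor range of 1733 to 5252 CPM. The library had 0 counts of Cldn11, Mal, Mog, Ermn, Opalin and Ugt8a, in 1800916 total counts, where 3 counts are worth 1.67 CPM. In the other 9 hexagons Cldn11 had 94.4 to 1006 CPM and Mal, a lipid-raft protein of myelin, had 48.5 to 658 CPM. Of the 67 oligodendrocyte genes, 39 to 63 were detected per myelin-rich hexagon (median 58.5), against 26 to 52 in myelin-poor ones (median 36).

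**Figure D2:**
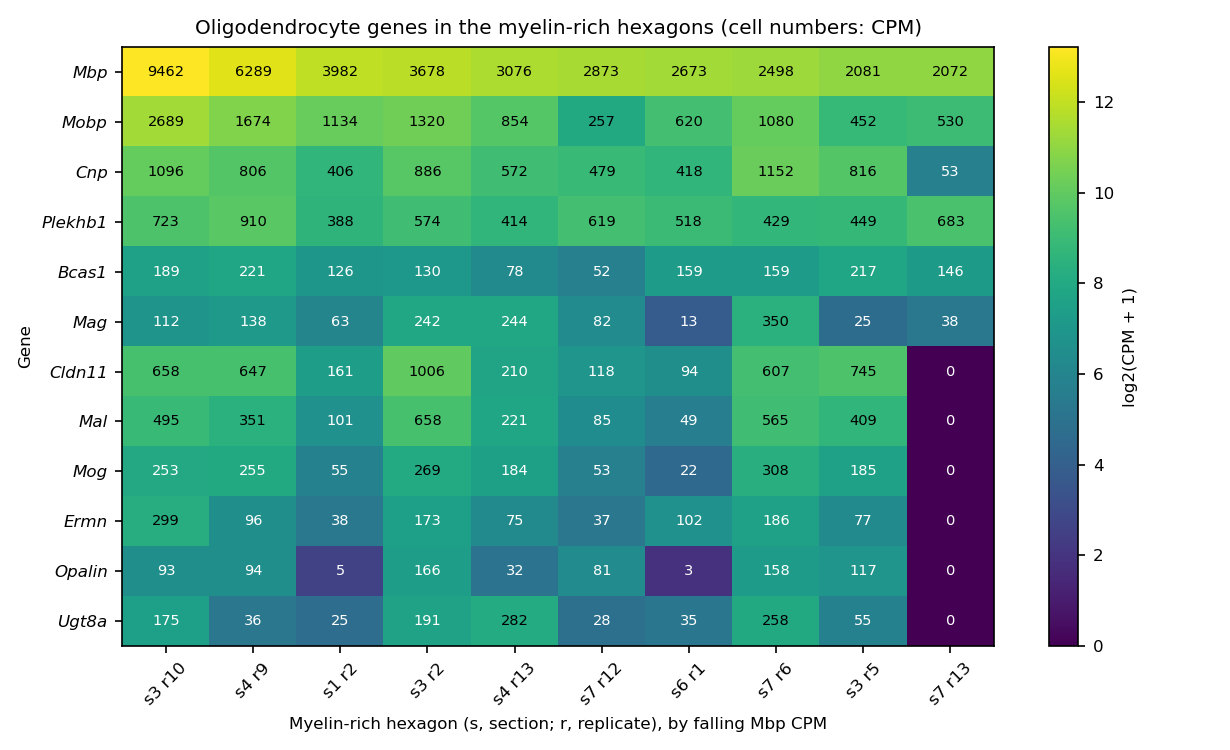
CPM of 12 oligodendrocyte genes (rows) in the 10 myelin-rich hexagons (columns), ordered by Mbp; the colour is log2(CPM + 1). The last column, replicate 13 of section 7, has 0 in the 6 lowest rows while Mbp and Mobp stay at 2072 and 530 CPM.

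Outside these lists 51 of 10033 genes differed between myelin-rich and myelin-poor hexagons, 32 higher and 19 lower. The test was edgeR's quasi-likelihood test with section as a factor and Benjamini-Hochberg adjustment over all 10073 genes tested, at an adjusted p under 0.05. These calls were 0.508% of the genes outside the lists, with 0.319% higher and 0.189% lower. The median log2 fold change of all genes tested was -0.04. With 24 oligodendrocyte genes counted in, 75 genes (0.745%) were called, of which 56 (0.556%) were higher; nothing is read from this count, since the rule fixed those genes. The groups were made from a transcript of the same libraries, so a gene that shares cells or tissue with Mbp differs by the way the groups were made. This holds for some of the 32, among them S100b, Qk and Tubb4a, which are known in oligodendrocytes but stand outside the lists. The count is therefore not one of genes beyond oligodendrocytes. Since each library is bulk tissue, more cells of a type and more RNA per cell cannot be told apart. The count outside the lists rested on section 3, which holds 3 of the 10 myelin-rich hexagons: it was 4 without that section, 20 without section 4, 28 without section 7 and 23 without replicate 2 of section 3. With the oligodendrocyte genes left out of the totals and of the adjustment, the count was 31. It was 35 with log2 total counts as a further term, of which 34 were among the 51. With library set as a further term it was 35, of which 21 were among the 51. Library set is the letter that opens each library's description, and the labels do not say what it stands for. In section 7 the 3 myelin-rich hexagons and the 1 myelin-poor hexagon were of different library sets, which there cannot be told apart from the classes. The classes also differed in DV position, as given above. With both coordinates as further terms, Slc12a2, Phgdh, S100a16, Slc7a8, Mmd, Maml3, Rab22a and Ppp1r17 lost their calls. The other genes among the 10 largest increases and 10 largest decreases named below kept theirs in that fit.

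Outside the oligodendrocyte lists the smallest adjusted p was that of Fth1 (chr19:9980598-9985098 in GRCm38, plus strand), the heavy chain of ferritin, which stores iron. It had 1585, 1971 and 3846 CPM in myelin-rich hexagons (lowest, median, highest), against 718, 972 and 1556 CPM in myelin-poor ones. All 10 myelin-rich hexagons lay above the highest myelin-poor one. The log2 fold change was 1.20 ± 0.12 (SE; edgeR adjusted p = 3.21e-09). Replicate 13 of section 7, with 0 counts of 6 myelin genes, had 1771 CPM of Fth1. The cells that Fth1 came from were not tested. Because the groups were made from Mbp, a gene of the same cells differs by the way they were made. Whether Fth1, or Gatm below, is such a gene was not tested either, so their p-values do not place them beyond oligodendrocytes.

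Gatm (chr2:122594467-122611303, minus strand), the first enzyme of creatine synthesis, averaged 206 ± 159 CPM in myelin-rich and 54.2 ± 33.9 CPM in myelin-poor hexagons (SD, n = 10 and 29). It rose by 2.23 ± 0.32 on the log2 scale (SE; edgeR adjusted p = 1.14e-05), with 5 of 10 myelin-rich hexagons above the highest myelin-poor one. S100b (chr10:76253853-76261159, plus strand), a calcium-binding protein of astrocytes and of oligodendrocytes, had 148 to 371 CPM (median 180), against 11.99 to 173 CPM (median 76.8). Its log2 fold change was 1.43 ± 0.25 (edgeR adjusted p = 4.08e-04), and 7 of 10 myelin-rich hexagons lay above all myelin-poor ones.

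The remaining genes with the largest increases were Pkp4, a plakophilin of cell junctions (1.84, edgeR adjusted p = 0.00214), Ttyh2, an anion channel family member (1.81, 0.00818), the adhesion protein Cadm2 (1.85, 0.0272), the sodium-potassium-chloride cotransporter Slc12a2 (1.57, 0.0272), Phgdh, which opens serine synthesis (1.51, 0.0434), Tmem229a (1.43, 0.00920) and S100a16 (1.30, 0.0473), each as log2 fold change and edgeR adjusted p. All 7 were higher in 5 of 5 sections. The means in myelin-rich hexagons were 99.7 to 152 CPM, against 37.2 to 57.8 CPM in myelin-poor ones, and single hexagons of the groups overlapped for each gene. Fth1, Gatm and Pkp4 kept an adjusted p under 0.05 under all 33 alternatives tried, and S100b lost it under 1, whereas Phgdh lost it under 21 and S100a16 under 18. Cadm2 and Slc12a2 lost it under 10 each, Tmem229a under 7 and Ttyh2 under 4. Of the 10 largest increases only Fth1, Gatm and Pkp4 kept it without section 3.

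Among the genes that fell, Nsun7, of an RNA methyltransferase family, averaged 5.97 ± 8.41 CPM in myelin-rich and 27.6 ± 20.1 CPM in myelin-poor hexagons (log2 fold change -3.38 ± 0.74, edgeR adjusted p = 0.0116). The amino acid transporter Slc7a8 averaged 13.42 ± 12.04 and 55.4 ± 38.6 CPM in the same 2 groups (-2.30 ± 0.55, edgeR adjusted p = 0.0269). Rab22a, an endosomal GTPase, had 0.929 to 94.9 CPM (median 23.3), against 41.6 to 150 CPM (median 77.9), and 8 of 10 myelin-rich hexagons lay below the lowest myelin-poor one (-1.51 ± 0.36, edgeR adjusted p = 0.0269).

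The polycomb-group gene Pcgf5 fell by 1.11 ± 0.23 (86.6 ± 35.7 against 181 ± 59.7 CPM; edgeR adjusted p = 0.00573), Ppp1r17, a phosphatase inhibitor, fell too (59.1 ± 40.4 against 155 ± 78.3 CPM; edgeR adjusted p = 0.0171), and the kinase scaffold Mapk8ip2 fell by 0.86 ± 0.19 (0.0130). Trp53i11 fell by 0.84 ± 0.21 (0.0430), the Notch coactivator Maml3 by 1.59 ± 0.40 (0.0437), Med12l, a Mediator subunit homologue, by 1.83 ± 0.46 (0.0434) and Mmd by 1.66 ± 0.43 (0.0489). All 10 genes had lower means in myelin-rich hexagons in each of the 5 sections, of which sections 1 and 7 hold 1 myelin-poor hexagon each. Each of the 10 lost its call without section 3. Mmd lost its call under 26 of 33 alternatives, Trp53i11 under 20 and both Maml3 and Med12l under 19. Slc7a8 lost its call under 10, Rab22a under 9, Ppp1r17 under 8, Nsun7 and Mapk8ip2 under 6 each and Pcgf5 under 3.

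**Figure D3:**
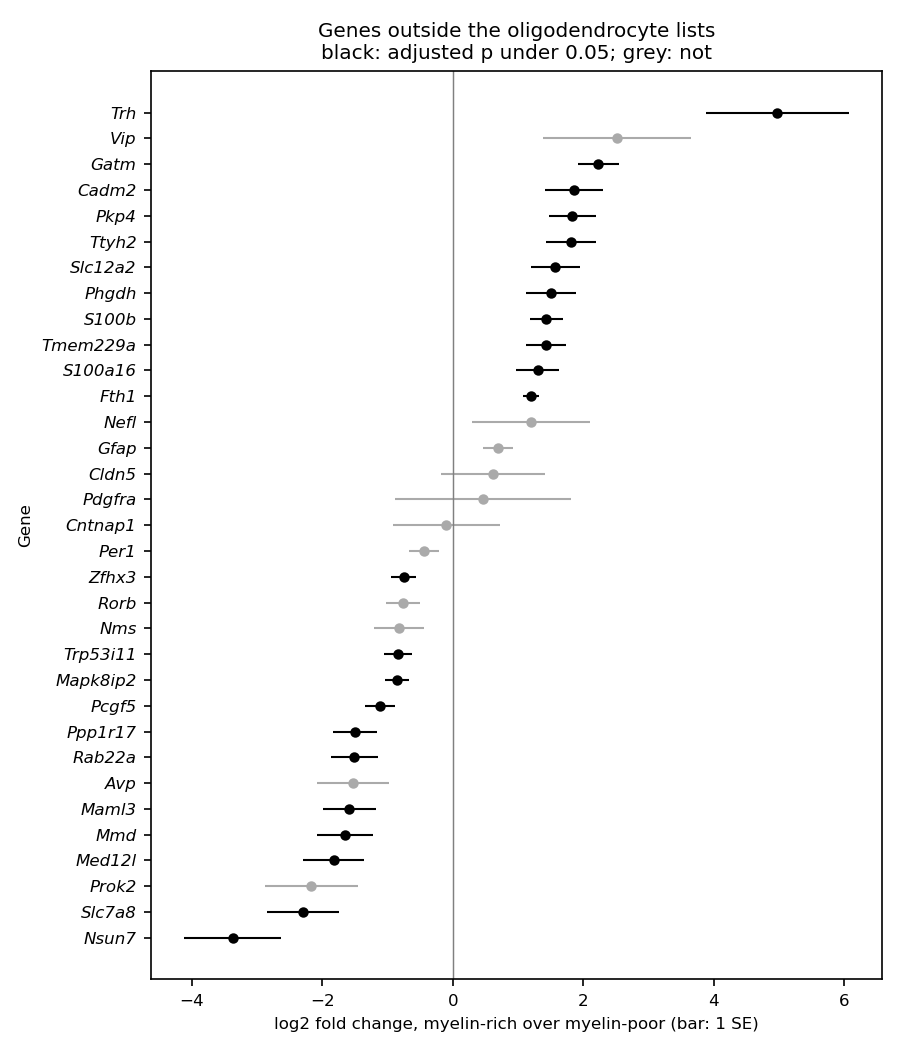
Log2 fold change (myelin-rich over myelin-poor, x; bar, 1 SE) of the named genes outside the oligodendrocyte lists (y); black, edgeR adjusted p under 0.05; grey, not. Fth1 has the shortest bar (1.20 ± 0.12), and the black points to the left of 0 run from Zfhx3 (-0.76) to Nsun7 (-3.38).

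Of 16 regulators and receptors of SCN neurons, 16 of them tested, 1 fell and 0 rose in myelin-rich hexagons by edgeR's test, and 14 had a negative fitted value (median log2 fold change -0.48, against -0.04 for all genes). DESeq2 called 3 of them lower, Zfhx3 and the receptors Avpr1a and Grpr, where it called 0.837% of all genes outside the oligodendrocyte lists lower and 0.678% higher. At an unadjusted edgeR p under 0.05, 4 of the 16 were lower and 0 higher, where 5.26% of all genes outside those lists were lower and 4.00% higher. The gene called by edgeR was Zfhx3 (chr8:107942644-108961630, plus strand), a zinc-finger factor of SCN neurons that sets circadian period. It had 72.1 to 250 CPM (median 163) in myelin-rich hexagons, against 108 to 435 CPM (median 248) in myelin-poor ones, and 3 of 10 lay below all myelin-poor hexagons. Its log2 fold change was -0.76 ± 0.19 (edgeR adjusted p = 0.0455), and the call was lost under 18 of 33 alternatives. The nuclear receptor Rorb averaged 822 ± 389 CPM in myelin-rich and 1521 ± 548 CPM in myelin-poor hexagons, and did not pass the test (-0.76 ± 0.26, edgeR adjusted p = 0.212), though it did under 2 of 33 alternatives.

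Of 23 tested clock genes 0 were called, and 16 had a negative fitted value (median -0.38). Per1 averaged 117 ± 61.0 CPM in myelin-rich and 164 ± 69.1 CPM in myelin-poor hexagons (-0.45 ± 0.23, edgeR adjusted p = 0.542). Of 14 pan-neuronal genes 0 were called (8 negative, median -0.03), of 16 genes of GABA signalling 0 (median 0.13) and of 21 genes of axons, nodes and neurofilaments 0 (median 0.12). At the same unadjusted threshold, with 4.00% of genes higher and 5.26% lower as above, there were 1 higher and 4 lower clock genes, 1 higher and 3 lower pan-neuronal genes, 0 genes of GABA signalling, and 2 higher and 2 lower axonal genes. DESeq2 called 0 genes of these 4 lists. Nefl, the light neurofilament chain of large axons, had 15.6 to 254 CPM in myelin-rich hexagons, against 0 to 166 CPM in myelin-poor ones (1.20 ± 0.90, edgeR adjusted p = 0.747). The node protein Cntnap1 had 0 to 136 CPM, against 0 to 135 CPM (-0.10 ± 0.82, edgeR adjusted p = 0.986), and its fitted value had the other sign under 12 of 33 alternatives.

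Among 8 tested SCN neuropeptides 1 rose and 0 fell by edgeR's test. At an unadjusted edgeR p under 0.05, 2 of the 8 were higher and 3 lower. Of all genes outside the oligodendrocyte lists 4.00% were higher and 5.26% lower at that threshold. The gene called was Trh, also the only one of the list that DESeq2 called. Trh, thyrotropin-releasing hormone, was at 0 in 5 of 10 myelin-rich and 16 of 29 myelin-poor hexagons. Its mean was higher in myelin-rich hexagons in 3 of the 5 sections that hold both classes. The log2 fold change of 4.97 ± 1.10 (edgeR adjusted p = 0.0269) was tested under 29 of the 33 alternatives and lost its call under 9. Among these were the fits without replicate 2 of section 3, without replicate 13 of section 4 and without section 6. Replicates 2 and 5 of section 3 had 1480 and 1156 CPM, replicate 13 of section 4 had 348 CPM, and the other 7 myelin-rich hexagons had at most 55.4 CPM. The highest myelin-poor hexagon had 796 CPM.

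Nms, neuromedin S of SCN neurons, had 2.84 to 165 CPM in myelin-rich hexagons (median 85.3), against 47.7 to 343 CPM in myelin-poor ones (median 150), and did not pass the test (-0.82 ± 0.39, edgeR adjusted p = 0.485). Its myelin-rich values were 2.84, 6.50, 30.0 and 39.4 CPM in 4 hexagons, all below the lowest myelin-poor value, and 54.6 to 165 CPM in the other 6. The 4 low ones were replicate 12 of section 7, replicate 2 of section 3, replicate 13 of section 7 and replicate 10 of section 3. Without the hexagons under 50 CPM of Nms, a split chosen after the data were seen, 16 genes were called outside the lists, of which 12 were among the 51.

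Vip, of the ventral SCN, ran from 0 to 11544 CPM (median 94.6) in myelin-rich and from 0 to 11755 CPM (median 94.0) in myelin-poor hexagons (2.52 ± 1.14, edgeR adjusted p = 0.468). It had 1963 CPM or more in 4 myelin-rich hexagons, and also in several myelin-poor ones, among them replicates 10 and 11 of section 6 (11755 and 4648 CPM). With both coordinates as further terms its fitted value was -0.01. Avp, of the SCN shell, averaged 155 ± 184 CPM in myelin-rich and 397 ± 270 CPM in myelin-poor hexagons (-1.53 ± 0.55, edgeR adjusted p = 0.271). Prok2, an output signal of the SCN, averaged 70.1 ± 119 and 226 ± 246 CPM in the same order of groups (-2.17 ± 0.71, edgeR adjusted p = 0.202). The vesicular glutamate transporter Slc17a6, of neurons around the SCN, did not pass the filter. It averaged 29.2 ± 38.4 CPM in myelin-rich and 2.32 ± 7.17 CPM in myelin-poor hexagons, was at 0 in 5 of 10 and 22 of 29, and had 74.3 to 88.2 CPM in replicate 2 of section 1 and in replicates 2 and 5 of section 3.

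**Figure D4:**
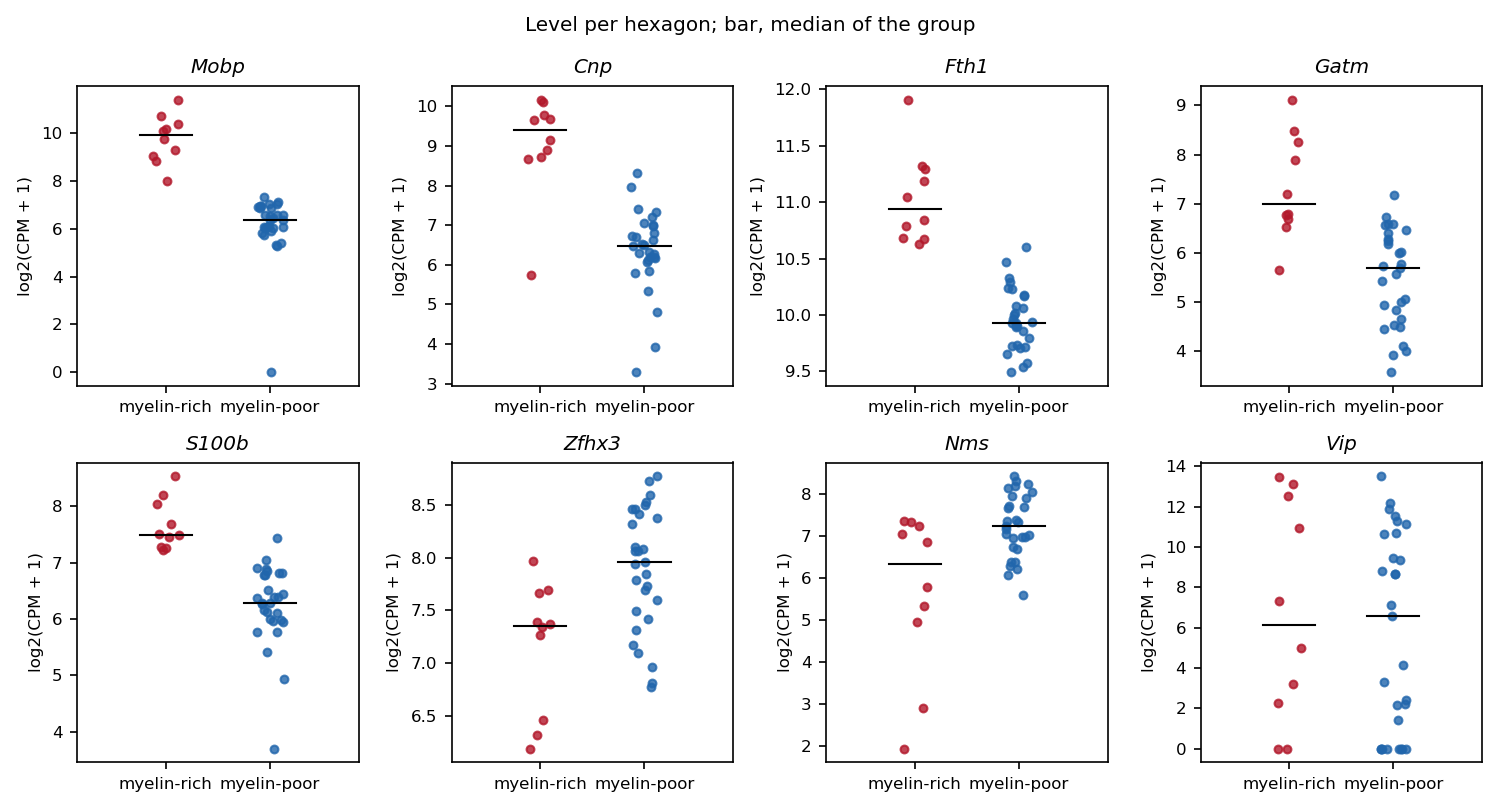
Level of 8 genes per hexagon as log2(CPM + 1) (y) in myelin-rich (left, red, 10 hexagons) and myelin-poor hexagons (right, blue, 29 hexagons); bar, median. Mobp and Fth1 do not overlap between the groups, while Vip runs from 0 to 11544 CPM in the myelin-rich and to 11755 CPM in the myelin-poor hexagons.

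Of 19 tested astrocyte genes 1 rose by edgeR's test (S100b) and 0 fell, 19 had a positive fitted value and the median was 0.54. At an unadjusted edgeR p under 0.05, 10 of the 19 were higher and 0 lower, against 4.00% and 5.26% of all genes outside the oligodendrocyte lists. DESeq2 called Apoe, a lipid carrier, beside S100b. Their summed level was 9859 to 15793 CPM in myelin-rich hexagons, against 2516 to 11137 CPM in myelin-poor ones, and 0 of the 21 listed genes were at 0 in every myelin-rich hexagon. Gfap, the filament of reactive and fibrous astrocytes, averaged 335 ± 150 CPM in myelin-rich and 208 ± 74.2 CPM in myelin-poor hexagons and did not pass the test (0.70 ± 0.23, edgeR adjusted p = 0.184), though it did under 2 of 33 alternatives. The part of astrocytes in the other differences was not tested.

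Oligodendrocyte precursor genes had 0 calls of 8 tested (8 positive, median 0.89). Pdgfra, their growth factor receptor, averaged 34.6 ± 72.8 CPM in myelin-rich and 47.1 ± 70.0 CPM in myelin-poor hexagons (0.46 ± 1.35, edgeR adjusted p = 0.959), and its fitted value had the other sign under 7 of 33 alternatives. Microglia had 0 calls of 9 (median 0.06) and endothelial and mural cells 0 of 8 (median 0.92), with Cldn5 of the blood-brain barrier at 16.4 ± 21.0 against 11.5 ± 10.9 CPM (0.61 ± 0.80, edgeR adjusted p = 0.891). Cholesterol synthesis, which supplies myelin, had 0 calls of 22, with 17 positive and a median of 0.20. The 11 tested mitochondrial transcripts had 0 calls and 11 positive values (median 0.31), 8 immediate early genes had 0 calls (median -0.21), and 2 erythrocyte genes had 0 calls (median 0.49). At the same unadjusted threshold, 2 precursor, 3 cholesterol, 2 vascular and 4 mitochondrial genes were higher and 0 lower, 1 immediate early and 1 erythrocyte gene were lower and 0 higher, and 0 microglial genes passed. DESeq2 called 0 genes of these 7 lists. Of the meningeal, ependymal, glutamatergic and neighbouring hypothalamic lists 0 genes passed the filter, and their summed levels were at most 288, 41.0, 88.2 and 202 CPM in myelin-rich hexagons, against at most 280, 187, 32.1 and 119 CPM in myelin-poor ones.

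The 42 hexagons between the thresholds, which share no library with the comparison, gave a second view of the same genes. A slope on log2(Mbp CPM + 1) within sections was fitted for each of the 10073 genes. By edgeR's quasi-likelihood test 0 genes (0.0%) passed an adjusted p of 0.05, the smallest being 0.177, and 490 (4.86%) had an unadjusted p under 0.05. Of the 32 genes higher in myelin-rich hexagons 28 had a positive slope, and of the 19 lower ones 15 had a negative slope, where 47.0% of all slopes were positive. Unadjusted p-values were under 0.05 in the same direction for 9 of the 32 and 7 of the 19. Fth1 had a slope of 0.34 ± 0.08 (SE; edgeR unadjusted p = 8.33e-05, adjusted p = 0.342) and Gatm 0.62 ± 0.22 (unadjusted p = 0.00794, adjusted p = 0.990). Zfhx3 had -0.42 ± 0.14 (unadjusted p = 0.00524, adjusted p = 0.952). Slopes were positive for 19 of 19 astrocyte genes and 34 of 40 oligodendrocyte genes, and negative for 15 of 16 SCN regulators and receptors and 21 of 23 clock genes. Genes of a list share the same libraries and are not independent of each other.

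**Figure D5:**
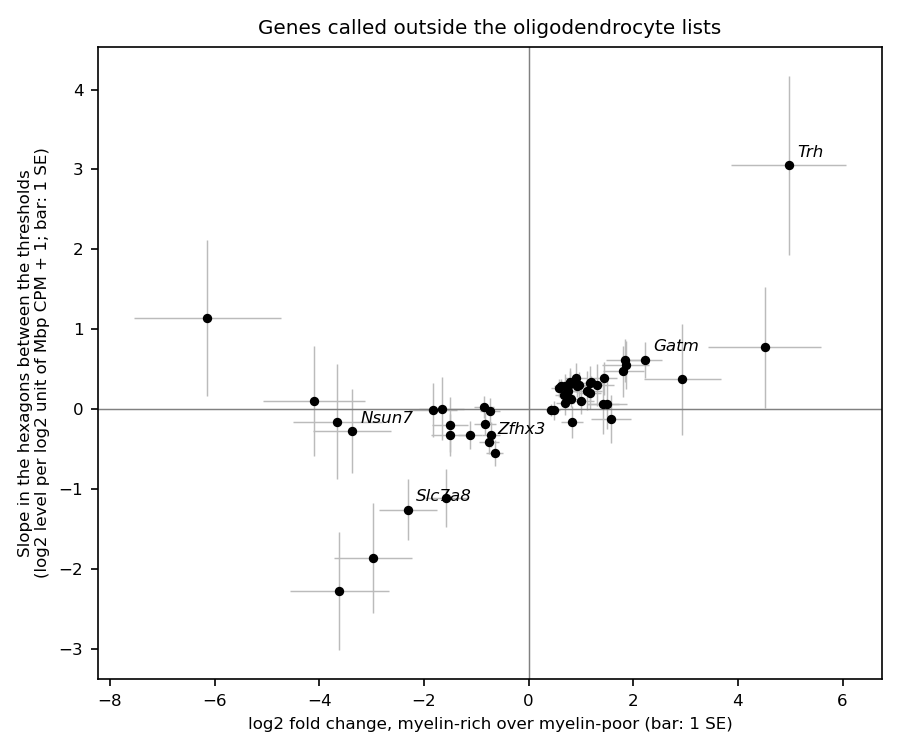
Slope on Mbp in the 42 hexagons between the thresholds (y, log2 level per log2 unit of Mbp CPM + 1) against the log2 fold change of myelin-rich over myelin-poor (x) for the 51 genes called outside the oligodendrocyte lists; bars, 1 SE. Most points lie in the upper right (28 genes) or lower left (15 genes).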

How the data were processed

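The data were 82 Smart-seq2 libraries, each from 1 hexagon. The authors deposited raw counts of reads for 27515 genes. The deposited RPKM table holds the authors' RPKM values, which equal the count scaled by gene length and library total, to rounding, with the gene length in bases as another value of the authors' table. Per the submitters' processing notes, bcl2fastq 2, STAR and the GRCm38 build were used. How reads were assigned to genes, and whether strand was used, is not stated per the labels, so genes with overlapping neighbours (14 of 52 named, including Mobp, Cnp, Cadm2, Mmd, Med12l, Rab22a and Pcgf5) may hold shared reads. Gene positions are from GENCODE annotation of GRCm38. No libraries were identical.

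CPM is count times 1000000 over the library total, with Mbp in the total. The thresholds were 2000 and 500 CPM of Mbp and 100000 total counts. The test took genes that reached 10 counts in at least 10 of the 39 fitted libraries and ran edgeR 4.0.16 in R 4.3.3 (TMM scaling, robust quasi-likelihood fit, section as a factor, 31 residual degrees of freedom, a p-value per gene with Benjamini-Hochberg adjustment at 0.05). Mbp was not tested. Only the 5 sections holding both classes inform the difference. Positions were tested by 100000 permutations of class within sections. The scripts were tested on simulated data. The labels name no animal, so p-values measure only the spread between hexagons. DESeq2 1.42.0 was an alternative.

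The text names the 10 largest called increases and decreases outside the oligodendrocyte lists with a mean of 20 CPM or more and 1 sign with each section left out, up to 4 called genes per list, and a set of named SCN, glial and axonal genes. The classes and the 21 lists were chosen with earlier results of these data known. Some genes of the oligodendrocyte lists are not reported here.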

Additional observations from a re-analysis of the deposited data

Results flagged for a closer look

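Over 56 values in the 10 myelin-rich hexagons, 8 had a highest hexagon that stood apart by Dixon's criterion (gap to the next value over the range above 0.466). Chance flags about 1 in 20 such groups of normally distributed values, and the rate for CPM with many zeros was not measured. Replicate 10 of section 3, the hexagon with the most Mbp, stood apart in 3 of them: it had 3846 CPM of Fth1 (next 2551), 237.8 CPM of Pdgfra (next 45.5) and 27.1 CPM of Sox10 (next 11.5). The oligodendrocyte factor Olig1 stood apart at 119.6 CPM in replicate 9 of section 4 (next 75.5).

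Among genes that were lower in myelin-rich hexagons, Rab22a stood at 94.9 CPM in replicate 13 of section 4 (next 45.5) and Mmd at 62.2 CPM in replicate 13 of section 7 (next 30.3). Prok2 had 360.2 CPM in replicate 6 of section 7 (next 179). Nefm, the medium neurofilament chain, had 76.8 CPM in replicate 12 of section 7 (next 17.2), which also had the highest Nefl level of the class (254 CPM).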

How the results depend on the processing

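Among the 33 named genes tested no called gene reversed its direction under the alternatives computed, and neither did a coordinate difference. For the largest changes this was partly set by their choice, which asked for 1 sign with each section left out. Outside the oligodendrocyte lists more genes were called higher than lower in the main fit (32, 19), but fewer with DESeq2 (68, 84). Of uncalled named genes the fitted value changed sign for Cntnap1 (-1.07 to 0.83), Pdgfra (-1.62 to 1.59), Vip (-0.01 to 3.45) and Cldn5 (-0.06 to 1.77). With no filter on low counts Nms, Vip, Avp, Prok2, Rorb and Gfap passed the test, with fold changes near those reported (Vip 2.52, edgeR adjusted p = 1.51e-83). The main fit gave Vip an edgeR adjusted p of 0.468 at that fold, and its ranges in the groups overlap (0 to 11544 against 0 to 11755 CPM). These calls are therefore not read as differences, and why the p-values fell was not tested. Rorb also passed with hexagons split at 1000 CPM of Mbp, and Gfap with no section factor. The number of genes called outside the oligodendrocyte lists (51; 32 higher, 19 lower) was 225 (122, 103) with no filter on low counts, 152 (68, 84) with DESeq2, 109 (75, 34) with no section factor, 78 (52 higher) with the hexagons between as a middle class, 28 (18, 10) with no depth minimum, 16 (15, 1) for the 20 highest against the 20 lowest hexagons by Mbp, and 19 higher with library set as a further factor. By alternatives added after seeing the data it was 16 (11, 5) without myelin-rich hexagons under 50 CPM of Nms, and 31 (9 lower) with oligodendrocyte genes left out of the totals, which also leaves them out of the adjustment. Including the lists (75), the counts were 264 with no filter, 178 with DESeq2, 135 with no section factor and 38 for the 20 highest against the 20 lowest. Without myelin-rich hexagons under 50 CPM of Nms this count was 31. With oligodendrocyte genes left out of the totals they were not tested, so that fit has no count including the lists. The cause of these changes was not tested. All 51 were among the 152 calls of DESeq2.

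Leaving out sections gave 13 to 69 calls in all and 4 to 47 outside the lists (3 to 34 higher, 1 to 17 lower). Leaving out single myelin-rich hexagons gave 43 to 76 in all and 23 to 54 outside (16 to 33 higher, 7 to 24 lower). For the hexagons between, 1 gene was called with no section factor, and leaving out sections gave 0 to 1. The DV difference ran from 113.7 to 149.2 as sections were left out, with the permutation p above 0.05 without section 4 (123.9). Within sections, which is what the permutation p tests, it ran from 84.8 (without section 4) to 114.3. The ML difference ran from 62.2 to 118.6, with a permutation p under 0.05 without section 6 (118.6) and when labels were permuted over all hexagons (88.5, p = 0.0221). Within sections the ML difference ran from 27.8 (without section 4, permutation p = 0.463) to 91.9 (without section 6).

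No paired analysis was possible because replicate numbers follow accession order and the labels name no animal. The shallower libraries limit low genes: 3 counts are worth 1.20 to 8.62 CPM in myelin-rich hexagons.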

Other observations

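Further genes called outside the oligodendrocyte lists are given here, chosen after their values were seen. They stand for no list, and the lists of cholesterol synthesis and astrocytes had 0 of 22 and 1 of 19 genes called. The desaturases Fads2, Scd1 and Scd2, which make unsaturated fatty acids, averaged 178 ± 77.9, 326 ± 98.9 and 1297 ± 265 CPM in myelin-rich hexagons, against 93.5 ± 39.8, 213 ± 57.5 and 851 ± 182 CPM in myelin-poor ones (SD, n = 10 and 29). Their log2 fold changes were 1.16 ± 0.22, 0.69 ± 0.18 and 0.61 ± 0.13 (SE; edgeR adjusted p = 0.00211, 0.0460 and 0.00620). Scd2 also had a slope of 0.28 ± 0.09 in the hexagons between the thresholds (edgeR unadjusted p = 0.00206, adjusted p = 0.842). Qk, an RNA-binding protein required for myelin transcripts, averaged 580 ± 145 CPM in myelin-rich and 330 ± 99.9 CPM in myelin-poor hexagons (0.78 ± 0.18, edgeR adjusted p = 0.0143). The tubulin Tubb4a, of myelinating cells, averaged 794 ± 308 and 433 ± 138 CPM in the same 2 groups (0.96 ± 0.20, edgeR adjusted p = 0.00573).

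Cst3, Sparcl1, Selenop and Mt1, secreted or stress proteins abundant in astrocytes, rose by 0.58, 0.69, 0.76 and 0.79 on the log2 scale (edgeR adjusted p = 0.0301, 0.0496, 0.0430 and 0.0485). Dlk1, an imprinted Notch-family ligand, fell to 374 ± 107 CPM in myelin-rich hexagons, against 631 ± 176 CPM in myelin-poor ones (-0.65 ± 0.16, edgeR adjusted p = 0.0316), and its slope in the hexagons between was -0.55 ± 0.16 (edgeR unadjusted p = 0.00160, adjusted p = 0.832).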
